A study of Mus musculus with 8 samples.

Results

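The genes described here encode the subunits of the proteasome. They were chosen by symbol, as all genes in the array's probe-to-gene annotation whose symbol is Psma, Psmb, Psmc or Psmd followed by a number, which gave 37 of 16593 genes with a symbol. The rule itself uses symbols only, and the gene family was picked with earlier results of these data known. The members fell into 14 core subunits (Psma and Psmb), 3 immune subunits (Psmb8, Psmb9 and Psmb10) and 19 regulatory subunits (Psmc and Psmd). Psmc3ip, which matched by its letters, encodes a protein of meiotic recombination and no subunit, and was left out of every count below. The filter on dim genes, a mean log2 intensity above 6.95, was passed by 33 of the 36 subunits, 12 core, 3 immune and 18 regulatory. Psma1 (mean 6.80) and Psma6 (6.77), both of the alpha ring, and the ATPase Psmc6 (6.93) lay below it on the only probe each has, so their changes could not be read. Just above it were Psmd2 (7.14) and Psmd5 (7.31).

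The proteasome is the protease that degrades proteins tagged with ubiquitin. Its core is a barrel of stacked rings: the outer rings are built of alpha subunits (Psma), which gate the entry, and the inner rings of beta subunits (Psmb), of which Psmb5, Psmb6 and Psmb7 carry the active sites. In cells exposed to interferon gamma, and constitutively in many leukocytes, Psmb8, Psmb9 and Psmb10 take the places of Psmb5, Psmb6 and Psmb7 and form the immunoproteasome, whose cut peptides are favoured for display on MHC class I. The regulatory particle caps the barrel. Its base holds the ATPases (Psmc), which unfold the substrate and thread it in, and its lid, among the Psmd proteins, holds the deubiquitinase Psmd14. In liver, a tissue of high protein turnover, the proteasome acts beside autophagy, and transcription factors such as Nfe2l1 and Nfe2l2 raise its subunits together when its capacity falls short.

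Liver total RNA of female C57/BL6 mice was measured after a 6 h fast on 8 Illumina bead arrays, 1 for each combination of dietary corn oil (5% or 21% by weight), age (day 90, young adult, or day 456, aged) and generation (F1 or F3). Each array is named by its combination, as in F1 5% D90, and each level of a factor has 4 arrays. No combination was repeated, and the labels do not say whether an array holds 1 animal or a pool, nor how the F1 and F3 generations were fed before them, so the p-values measure the spread that an additive model of the 3 factors leaves. Values are log2 of the deposited intensity, 1 probe per gene (the brightest), and a difference is given with its standard error (SE) from that model. Because probes bind with different strength, levels are compared between arrays and never between genes.

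The arrays had mean intensities of 456.9 on each and medians of 123.2 to 123.5. Over all probes, F1 5% D90 correlated least with the remaining arrays (mean r = 0.982), whose own mean r was 0.989 to 0.993. The medians of 12 hepatocyte markers were 12.88 to 13.28 on all arrays. Pancreas acinar markers had medians of 8.82 on F3 5% D90, 9.41 on F1 5% D456 and 10.20 on F3 5% D456, and of 6.87 to 6.98 elsewhere. The summed intensity of the 22 markers on the array was 10646 to 28260 on those 3 and 3120 to 3798 on the rest, so pancreas transcripts were high on 3 of the 4 arrays of the 5% diet and on none of the 21% diet. Skeletal muscle markers were highest on F1 5% D90 (8.42) and F3 5% D456 (7.96), against 6.90 to 7.10 elsewhere. For some subunits below, differences are also given with a single array left out. Class medians are also given without F1 5% D90 and F3 21% D456, which keeps the 3 arrays with high pancreas markers. Class medians with the pancreas level as a covariate are given for diet only.

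The standard deviation over the 8 arrays had a median of 0.13 for core, 0.16 for immune and 0.14 for regulatory subunits, beside 0.11 for all 8945 genes tested, and ran from 0.06 to 0.53 among the 33 subunits. F3 21% D456 held the highest value of 14 of the 33 subunits (42.4%), 7 of 12 core and 7 of 18 regulatory, where it held the highest value of 13.8% of all genes tested. F1 5% D90 held the lowest value of 13 subunits (39.4%, against 20.7% of all genes) and the highest of 4 (12.1%, against 37.8% of all genes). When each subunit was set against its own mean over the 8 arrays, the median core subunit was 0.22 higher on F3 21% D456, with 11 of 12 above their mean, and lay between -0.09 (F3 5% D90) and 0.06 (F3 5% D456) on the other 7 arrays. The immune subunits did not follow: their median was 0.13 below their mean on F3 21% D456 and 0.21 below on F3 5% D90, and highest on F3 5% D456 (0.15), F1 5% D456 (0.14) and F1 21% D456 (0.10). The regulatory medians ran from 0.07 below their mean on F1 5% D456 to 0.11 above on F3 21% D456. The median of all genes tested lay between -0.02 and 0.04 on every array. Over the 8 arrays the correlation of core subunits with one another had a median r of 0.35 over 66 pairs, that of regulatory subunits 0.11 over 153 pairs, and that of regulatory with immune subunits -0.18 over 54 pairs. These correlations describe arrays that share the same normalization, diet, age and generation contrasts.

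**Figure D1:**
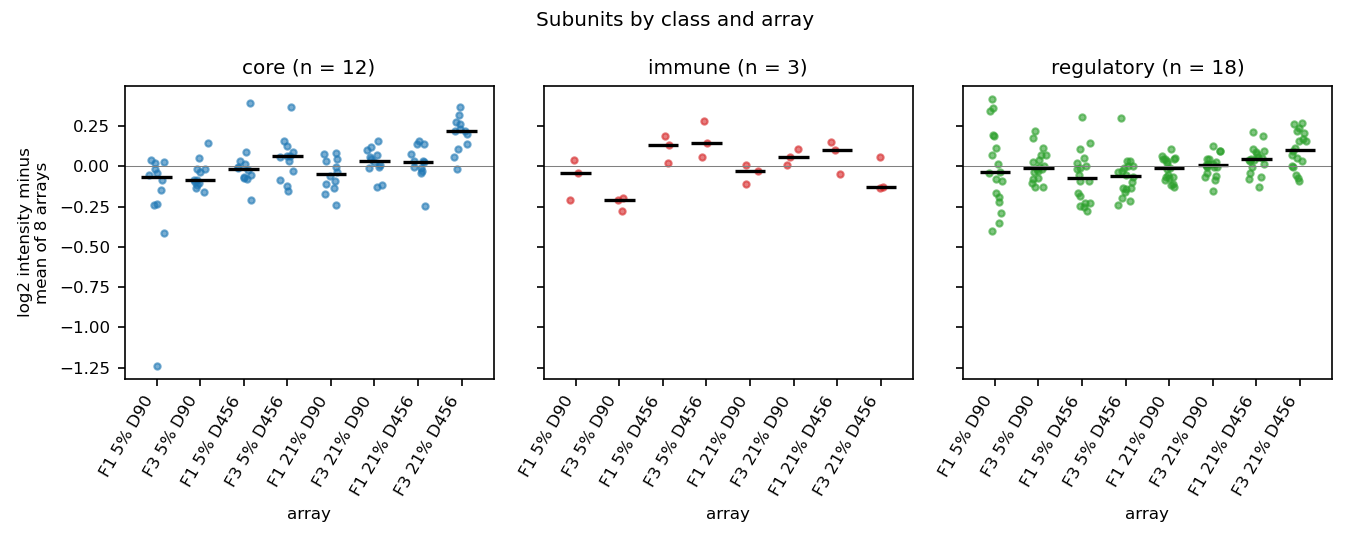
Each point is 1 subunit on 1 array, as log2 intensity minus that subunit's mean over the 8 arrays, and the black bar is the median of the class (12 core, 3 immune and 18 regulatory subunits). The core bar is highest on F3 21% D456 at 0.22, where the immune bar is at -0.13, and Psmb7 is the lowest core point on F1 5% D90.

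**Figure D2:**
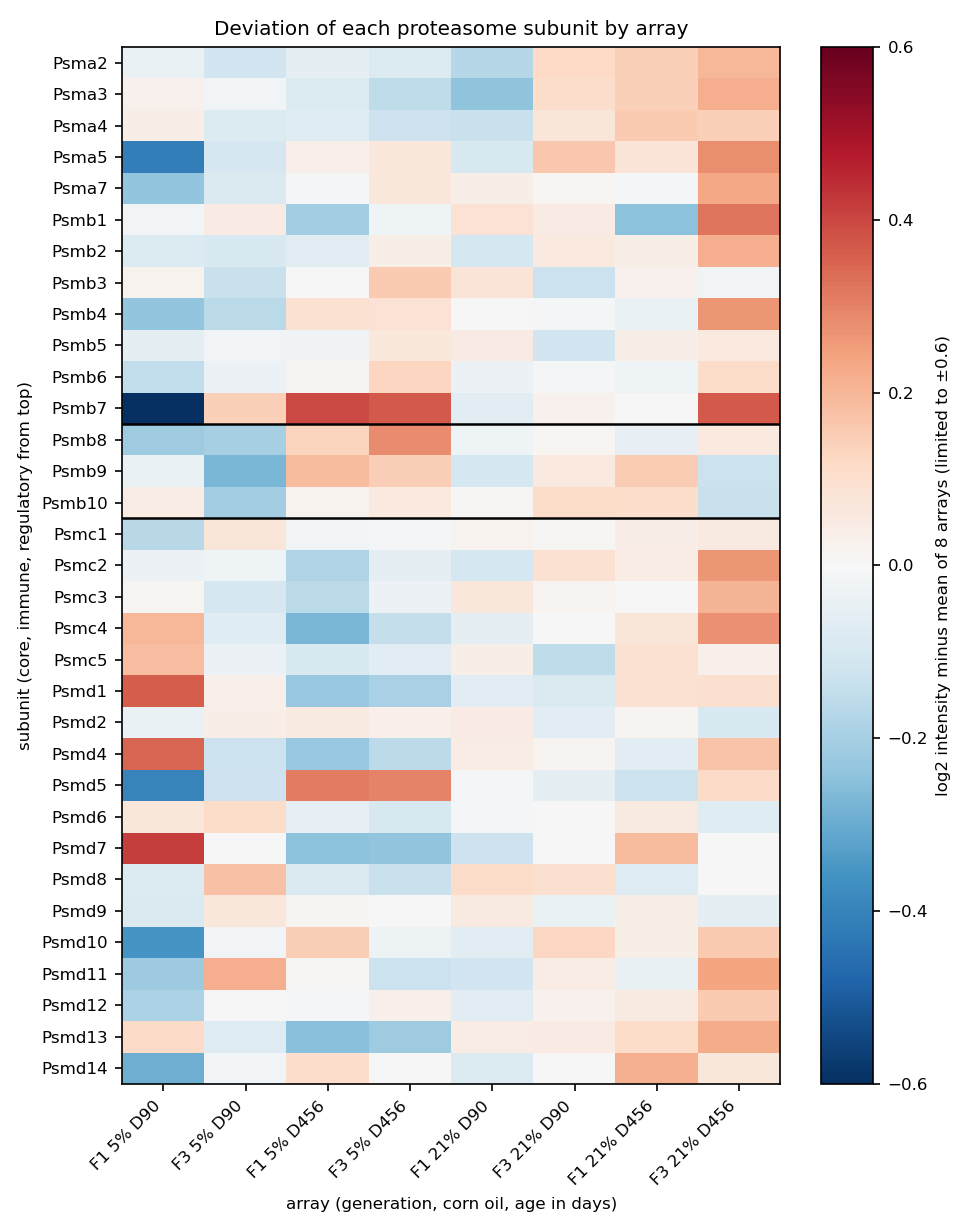
The colour gives the log2 intensity of each of the 33 subunits on each array minus its mean over the 8 arrays, with colours limited to 0.6 either way. The column of F3 21% D456 is mostly red, and that of F1 5% D90 is blue for Psmb7, Psma5 and Psmd5 and red for Psmd7, Psmd1 and Psmd4.

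F1 5% D90 and F3 21% D456 are the opposite corners of the design, since F1 5% D90 has the lower level of every factor and F3 21% D456 the higher. A low value on the first or a high value on the second therefore adds to the differences for age, diet and generation alike, whatever the other 6 arrays give. Psma5, Psma7, Psmb4, Psmd10, Psmd11 and Psmd12 were lowest on the first and highest on the second. Of all subunits tested, only Psma5 and Psmd12 were higher in 4 of 4 pairs for every factor. Without both arrays the differences of Psma5 were 0.17 for age, 0.15 for diet and 0.14 for generation, each with an SE of 0.12. Class medians without both corner arrays are given beside each comparison.

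The first comparison was of age, day 456 against day 90. No subunit passed an adjusted p of 0.05 by limma (smallest adjusted p = 0.359), where 9 of 8945 genes did (0.101%). At an unadjusted p below 0.05, 5 of 33 subunits stood against 12.2% of all genes, and all 5 were higher at day 456: Psma5, Psmb4, Psmb7, Psmb8 and Psmd5. The difference was above 0 for 11 of 12 core subunits (median 0.11), all 3 immune subunits (median 0.18) and 10 of 18 regulatory subunits (median 0.003), beside 40.6% of all genes tested (median -0.02). Without both corner arrays these medians were 0.12, 0.23 and -0.01, with 11 of 12, 3 of 3 and 8 of 18 subunits higher. Counted over the 4 pairs of arrays alike in diet and generation, 6 subunits were higher at day 456 in every pair, against 7.61% of all genes, and 1, the lid subunit Psmd8, was lower in every pair, against 11.8%.

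In the alpha ring, all 5 subunits tested were higher at day 456, by 0.05 to 0.22. Psma5 had the smallest p among the subunits. On 5% corn oil it read 11.85 (F1) and 12.17 (F3) at day 90 and 12.30 and 12.33 at day 456, and on 21% corn oil 12.18 and 12.43 at day 90 and 12.35 and 12.55 at day 456. It was higher at day 456 in 4 of 4 pairs, although the day 90 and day 456 arrays overlapped across diets, and lowest by far on F1 5% D90. The difference was 0.22 ± 0.08 (SE, n = 4 arrays per level), with an adjusted p of 0.359 by limma, and 0.16 to 0.26 when each array was left out in turn.

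In the beta ring, 6 of 7 subunits were higher at day 456, and Psmb1, a subunit without an active site, was lower by 0.08. Psmb4, which has no active site either, read 12.60 (F1) and 12.67 (F3) at day 90 and 12.92 on both arrays at day 456 on 5% corn oil. On 21% corn oil Psmb4 read 12.83 on both arrays at day 90, and 12.79 (F1) and 13.10 (F3) at day 456. The difference was 0.20 ± 0.08 (adjusted p = 0.396 by limma), and 0.11 ± 0.12 without both corner arrays. The pair of F1 arrays on 21% corn oil ran the other way.

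Of the catalytic subunits, Psmb5, the chymotrypsin-like site, read 9.62 and 9.66 (F1 and F3) at day 90 and 9.65 and 9.74 at day 456 on 5% corn oil, and 9.72 and 9.56 at day 90 and 9.71 and 9.73 at day 456 on 21%. Its age difference of 0.07 ± 0.09 was smaller than its error, and was 0.02 without F3 21% D90 and 0.10 without F1 21% D90. Psmb6, the caspase-like site, read 11.58 and 11.69 at day 90 and 11.74 and 11.85 at day 456 on 5% corn oil, and 11.69 and 11.72 at day 90 and 11.70 and 11.84 at day 456 on 21%. It was higher in 4 of 4 pairs, by 0.11 ± 0.08 (adjusted p = 0.511 by limma), with the F1 pair on 21% corn oil nearly level.

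Psmb7, the trypsin-like site, had the largest age difference of the 33 subunits tested, and its size rested on 1 array. It read 9.30 and 10.68 (F1 and F3) at day 90 and 10.93 and 10.90 at day 456 on 5% corn oil, and 10.47 and 10.56 at day 90 and 10.53 and 10.90 at day 456 on 21%. The value on F1 5% D90 was more than 1 log2 unit below every other array. The difference was 0.56 ± 0.24 (adjusted p = 0.405 by limma) with all arrays and 0.24 ± 0.10 without F1 5% D90 (adjusted p = 0.477), and it was 0.35 without F1 5% D456. The array carries 3 probes for Psmb7 above the filter, and they did not give the same difference: 0.56 on the brightest, 0.26 on the next and -0.08 on the dimmest. On F1 5% D90 the next probe was also low, at 9.88 against 10.37 to 10.70 elsewhere, while the dimmest was the highest of its 8 values, at 10.21 against 9.79 to 10.08. So the direction of Psmb7 with age depends on the probe.

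**Figure D3:**
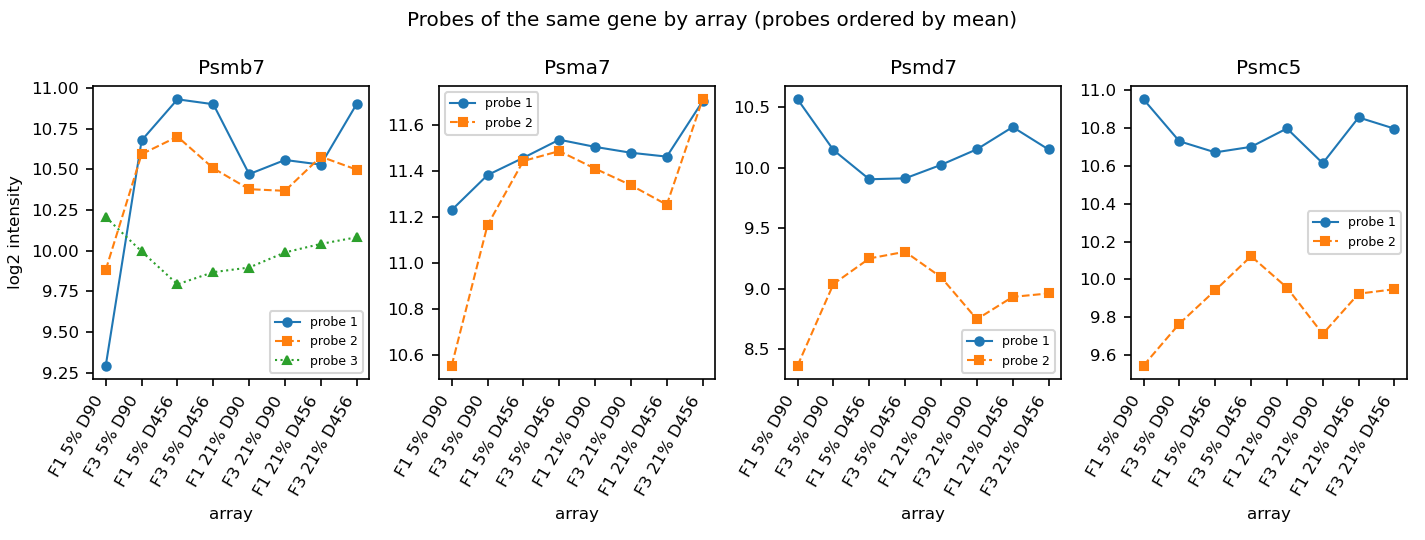
Log2 intensity by array for the probes of genes with several probes, ordered by mean, with 1 line per probe drawn to guide the eye. On F1 5% D90 the brightest Psmb7 probe is at 9.30 while the dimmest is at 10.21, and the Psmd7 probes move apart, to 10.57 and 8.36.

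The immune subunits come next. Psmb9 and Psmb8 lie close together on chromosome 17, within the MHC region, in the gene order Psmb9, Tap1, Psmb8, Tap2, and Tap1 and Tap2 encode the transporter that carries the cut peptides to MHC class I. The promoter windows below run from 250 bases before to 50 bases after the start of transcription, 5′ to 3′ on the gene's strand (RefSeq, build GRCm38.p6). Those of the neighbours Psmb9 and Psmb8 are shown because their values are set beside each other here, and that of Psma5 because it had the smallest p. Capitals mark matches to TGANNNNGC, the core of the antioxidant response element bound by Nfe2l2 and Nfe2l1, and in Psmb8 also a match to the STAT motif TTCNNNGAA, on either strand.
Psmb9, chr17:34187281-34187580, minus strand: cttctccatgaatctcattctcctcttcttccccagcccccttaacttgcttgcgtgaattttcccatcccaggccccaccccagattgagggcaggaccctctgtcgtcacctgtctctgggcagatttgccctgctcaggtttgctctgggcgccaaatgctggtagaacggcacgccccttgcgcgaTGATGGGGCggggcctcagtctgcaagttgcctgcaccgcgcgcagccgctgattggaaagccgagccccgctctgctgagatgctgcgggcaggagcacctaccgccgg
Psmb8, chr17:34197945-34198244, plus strand: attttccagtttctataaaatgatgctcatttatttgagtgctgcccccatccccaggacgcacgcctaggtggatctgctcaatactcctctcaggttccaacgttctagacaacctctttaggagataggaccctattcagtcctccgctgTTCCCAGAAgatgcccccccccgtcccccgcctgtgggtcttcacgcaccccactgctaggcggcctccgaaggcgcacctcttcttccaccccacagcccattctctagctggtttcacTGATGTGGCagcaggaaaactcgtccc
Psma5, chr3:108256676-108256975, plus strand: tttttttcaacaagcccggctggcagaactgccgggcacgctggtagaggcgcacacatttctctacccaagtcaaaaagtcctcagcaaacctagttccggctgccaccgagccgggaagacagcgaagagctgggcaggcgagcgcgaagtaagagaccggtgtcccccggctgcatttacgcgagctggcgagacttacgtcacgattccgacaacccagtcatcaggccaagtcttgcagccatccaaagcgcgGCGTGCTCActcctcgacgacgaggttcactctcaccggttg
The element core begins at base -60 in Psmb9, at 24 in Psmb8 and at 9 in Psma5, counted from the start, and the STAT motif at -97 in Psmb8. The Psmb9 window shares 275 of its 300 bases with that of Tap1, which is read from the opposite strand. Windows were given for 31 of the 36 subunits. The element core was in 8 of 11 core windows (72.7%), 2 of 3 immune and 8 of 17 regulatory windows (47.1%), beside 45% of the windows of 27025 genes. TGACTCA, the AP-1 site and inner part of that element, was in 0 of 11 core, 0 of 3 immune and 1 of 17 regulatory windows (5.95% of all). The interferon response motif GAAANNGAA was in 2, 0 and 3 of them (9.76% of all), the STAT motif in 0, 1 and 1 (9.55%), and CCAAT in 6, 1 and 5 (41.1%). A match describes letters and is not evidence of binding.

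The fitted age difference was above 0 for all 3 immune subunits. Without F3 5% D90 their median was 0.11. Psmb8 read 7.60 and 7.62 (F1 and F3) at day 90 and 7.95 and 8.10 at day 456 on 5% corn oil, and 7.79 and 7.82 at day 90 and 7.77 and 7.87 at day 456 on 21%. The pair of 5% day 90 arrays were its lowest values and the pair of 5% day 456 arrays its highest. Its age difference was 0.21 ± 0.09 over all arrays (adjusted p = 0.410 by limma), 0.41 within the 5% diet and 0.01 within the 21% diet. Psmb9 read 9.97 and 9.74 at day 90 and 10.20 and 10.16 at day 456 on 5% corn oil, and 9.91 and 10.07 at day 90 and 10.17 and 9.88 at day 456 on 21%. Its difference was 0.18 ± 0.11 (adjusted p = 0.491 by limma), 0.33 within the 5% diet and 0.04 within the 21% diet, where the F1 pair was higher by 0.26 and the F3 pair lower. It was 0.11 without F3 5% D90 and 0.28 without F3 21% D90. Psmb10 read 10.78 and 10.53 at day 90 and 10.76 and 10.80 at day 456 on 5% corn oil, and 10.75 and 10.85 at day 90 and 10.84 and 10.61 at day 456 on 21%. Its difference of 0.03 ± 0.10 was within its error, and its sign turned without F3 5% D90 (-0.04) or without F3 5% D456 (-0.03). The other Psmb10 probe, with a mean of 10.47 against 10.74, gave an age difference of 0.15.

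Each immune subunit was also read against the core subunit whose place it takes, as the change of their log2 difference between arrays. Psmb8 minus Psmb5 was larger at day 456 by 0.15 on average, in 2 of 4 pairs, with a range over pairs of -0.12 to 0.40. Psmb9 minus Psmb6 was larger by 0.07, in 3 of 4 pairs, with a range of -0.31 to 0.26. Psmb10 minus Psmb7 was smaller by 0.54, in 2 of 4 pairs, and by 0.20 without F1 5% D90. It was read on the brightest probe of each gene. The other Psmb7 probes gave age differences of 0.26 and -0.08 and the other Psmb10 probe 0.15, so the sign of this shift depends on the probe. None of these shifts was larger than the spread over the 4 pairs.

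Leukocyte markers were read for the same contrast. Of 26 tested, 25 were higher at day 456 (median difference 0.34), 1 of them, the plasma cell gene Mzb1, with an adjusted p of 0.022 by limma. Their median log2 intensity was 8.66 and 8.85 (F1 and F3) at day 90 and 9.10 and 9.16 at day 456 on 5% corn oil, and 8.71 and 8.93 at day 90 and 9.09 and 8.87 at day 456 on 21%. Their summed intensity was 14771 to 18857 on the day 90 arrays and 22048 to 27858 on the day 456 arrays. The pan-leukocyte gene Ptprc stayed near the floor of the array, at 6.86 to 6.95. Markers of other tissues were also higher at day 456. Of 4 red blood cell markers tested, 4 were higher (median 0.51), with the band 3 gene Slc4a1 at 0.90 ± 0.08 (adjusted p = 0.00815 by limma), and the summed intensity of the 5 on the array was 15697 to 20801 at day 90 and 23677 to 27308 at day 456. All 21 pancreas acinar markers tested were higher (median 1.02, 15 at an unadjusted p below 0.05), with the levels by array given above. Counts of markers higher at day 456 were 6 of 10 for endothelium, 2 of 12 for skeletal muscle and 3 of 11 for hepatocytes. A fit for age with the pancreas level as a covariate was also run, and no subunit passed in it. Its class medians are not given here. Beyond that fit, the part of these tissues and of leukocytes in the subunit values was not tested. In bulk liver, more cells of a type and more RNA per cell cannot be told apart.

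**Figure D4:**
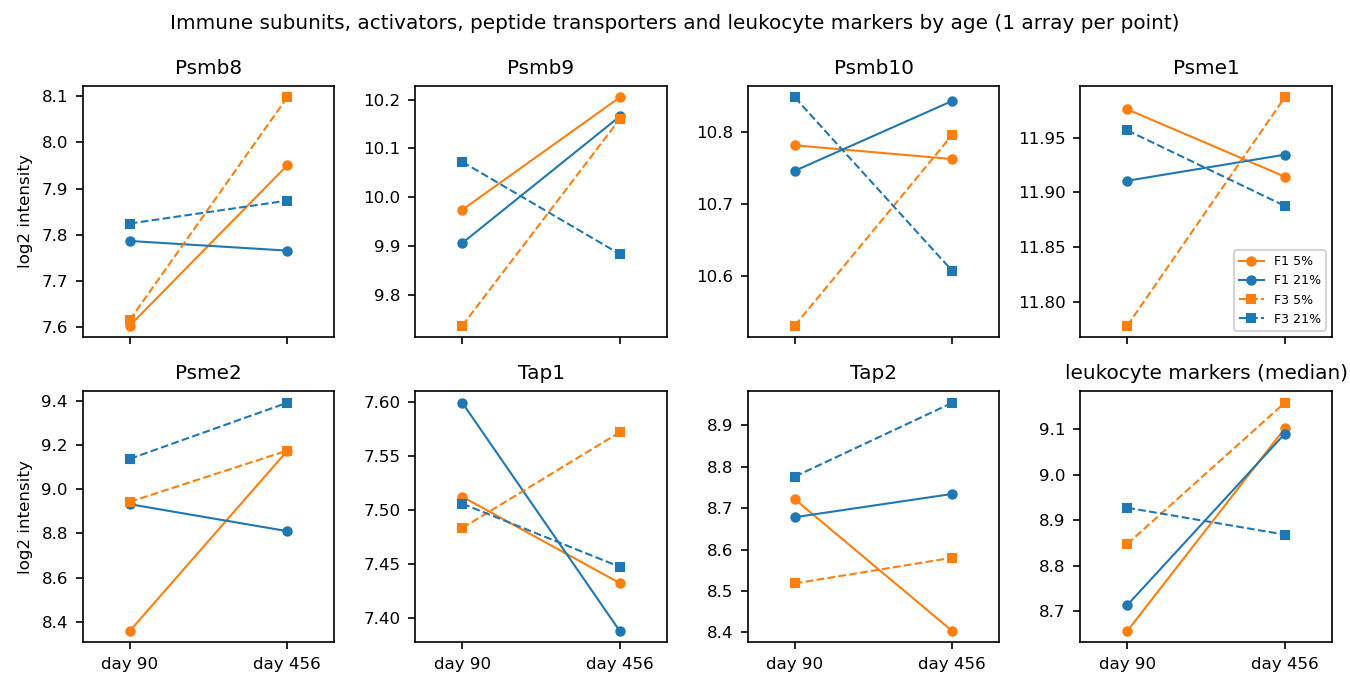
Log2 intensity at day 90 and day 456 of the immune subunits, the activator subunits, the peptide transporter genes and the median of the leukocyte markers, with 1 line per generation and diet and 1 array per point. Psmb8 and Psmb9 are higher at day 456 along both lines of the 5% diet, Psmb9 also along F1 on the 21% diet, and Psmb9 goes from 10.07 to 9.88 along F3 on the 21% diet.

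The regulatory subunits showed no shared direction with age. Among the base ATPases, 3 of the 5 tested were higher and the differences ran from -0.04 (Psmc4) to 0.04 (Psmc2). The other Psmc5 probe gave 0.24. Of the base subunits without ATPase activity, Psmd1, Psmd2 and Psmd4, of which Psmd4 is a ubiquitin receptor, 1 was higher (median -0.12). In the lid, 3 of 7 were higher. Of the base chaperones, which help the ATPases assemble, Psmd10 was higher by 0.16 ± 0.11 in 3 of 4 pairs, and Psmd9 had a difference of 0.004 ± 0.06 and was higher in 1 of 4 pairs. Their other probes above the filter gave 0.23 and 0.35 for Psmd10 and 0.14 for Psmd9. The third chaperone, Psmd5, read 6.91 and 7.18 (F1 and F3) at day 90 and 7.61 on both arrays at day 456 on 5% corn oil, and 7.30 and 7.25 at day 90 and 7.18 and 7.42 at day 456 on 21%. Its difference was 0.30 ± 0.11 (adjusted p = 0.360 by limma), and 0.19 without F1 5% D90, where its value lay under the filter's bound. Psmd14, the deubiquitinase that cuts the ubiquitin chain off the substrate, read 8.54 and 8.82 at day 90 and 8.94 and 8.84 at day 456 on 5% corn oil, and 8.75 and 8.83 at day 90 and 9.05 and 8.90 at day 456 on 21%. It was the 1 subunit of 33 whose 4 day 456 arrays all lay above its 4 day 90 arrays, against 3.22% of all genes. Its difference was 0.20 ± 0.10 (adjusted p = 0.446 by limma), and the nearest values of the groups, 8.83 and 8.84, nearly touched.

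Psmd7, a lid subunit that pairs with Psmd14, was lower at day 456 by 0.15 ± 0.15 on its brighter probe and higher by 0.30 on its other probe. Of the 12 subunits with several probes above the filter, the probes had the same sign for age in 7, and differed in Psmb7, Psmc5, Psmd7, Psmd11 and Psmd12. They had the same sign for diet in 7 and for generation in 6.

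**Figure D5:**
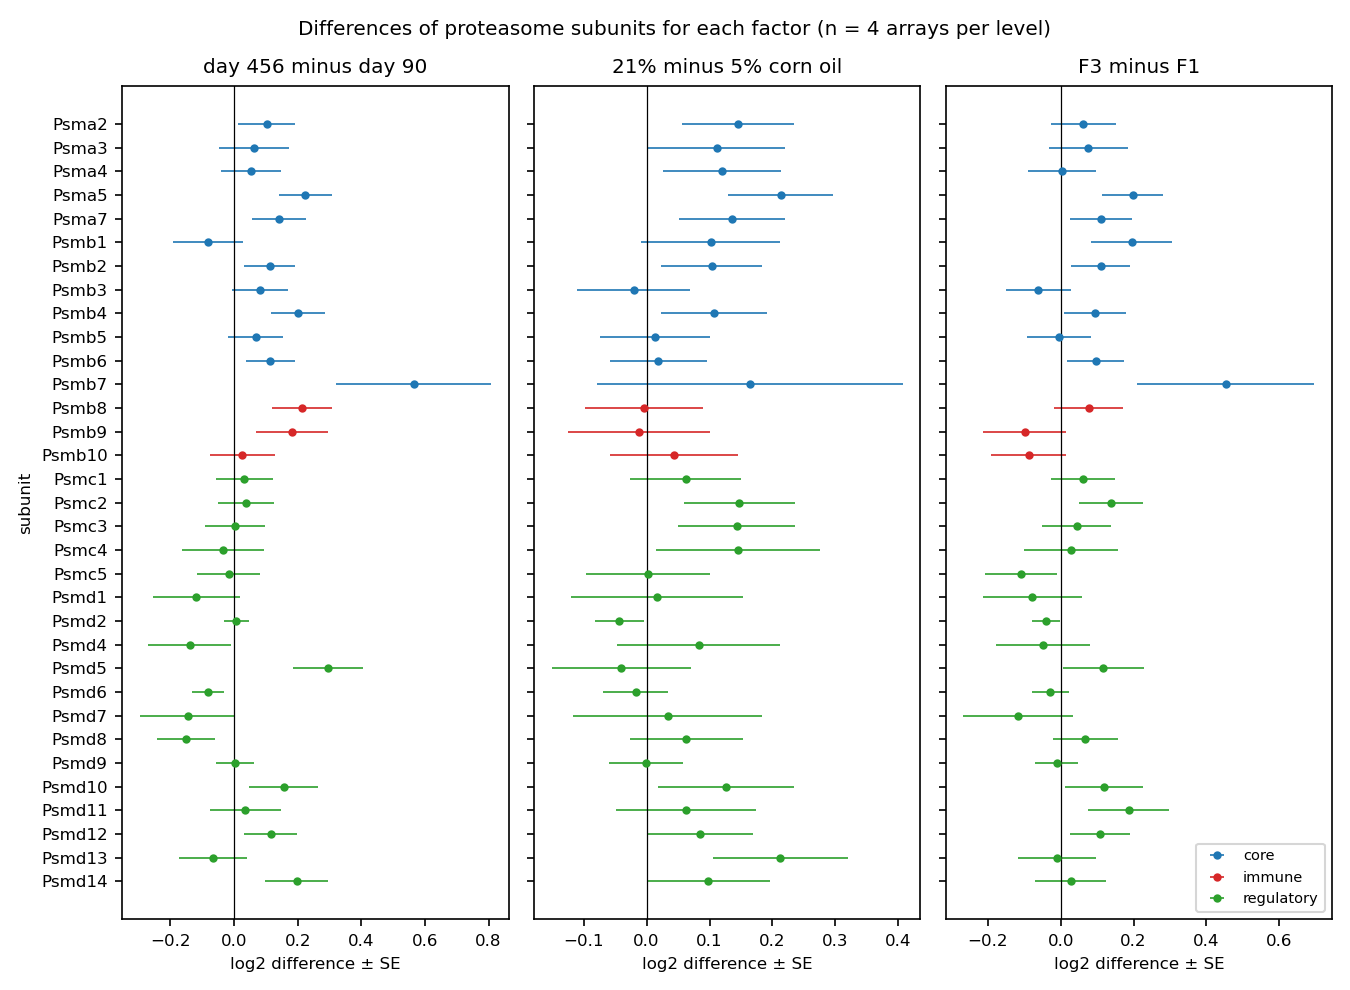
Log2 difference with its SE for each of the 33 subunits and each factor (4 arrays per level), with core in blue, immune in red and regulatory in green. Psmb7 lies farthest right for age (0.56) and generation (0.45) with the widest bar (0.24), and most core subunits lie right of 0 in all 3 panels.

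Age was also read within each diet, with 2 pairs in each. The median core subunit was higher at day 456 by 0.10 on 5% and by 0.13 on 21% corn oil. The immune median was 0.33 on 5% (3 of 3 higher) and 0.01 on 21% (2 of 3). The regulatory median was -0.08 on 5% (7 of 18 higher) and 0.09 on 21% (14 of 18). For all genes tested, the median difference of each pair was -0.06 (F1) and -0.02 (F3) on 5% corn oil. On 21% corn oil it was 0.001 (F1) and -0.002 (F3). The share of all genes higher within each diet is not given here. The diet by age term was tested for each gene. No subunit and none of the 8945 genes passed (0%, smallest adjusted p of a subunit 0.403 by limma), and 4 subunits had an unadjusted p below 0.05, against 11.8% of all genes: Psmd5, Psmd1, Psmb8 and Psmd7. The age difference on 21% minus that on 5% corn oil was -0.54 ± 0.12 for Psmd5 and 0.58 ± 0.19 for Psmd1, a scaffold of the base. Psmd1 read 8.89 and 8.56 (F1 and F3) at day 90 and 8.30 and 8.33 at day 456 on 5% corn oil, and 8.46 and 8.44 at day 90 and 8.62 on both at day 456 on 21%. It was highest on F1 5% D90, as were Psmd4 (12.37) and Psmd7 (10.57). Both day 456 arrays of the 5% diet carried pancreas markers, as did F3 5% D90, so diet and pancreas transcripts cannot be told apart within this contrast at day 456. When F3 5% D90 was left out, 1 subunit passed, Psmb7 at -1.35 ± 0.22 (adjusted p = 0.034), a fit in which F1 5% D90 is the only day 90 array of that diet.

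For diet by generation and age by generation, no gene passed either (0% and 0%). At an unadjusted p below 0.05, no subunit stood in either, and 105 and 260 of all genes did. Closest were Psmd2, the other scaffold of the base, with -0.14 ± 0.07, and Psmd9 with -0.16 ± 0.12 for diet by generation (adjusted p = 0.9998 each by limma). For age by generation they were Psmb1 with 0.36 ± 0.19 and Psmd14 with -0.30 ± 0.17 (adjusted p = 0.996 each).

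The next comparison was of diet, 21% against 5% corn oil. No gene passed by limma (0%, smallest adjusted p of a subunit 0.99996), and 1 of 33 subunits, Psma5, had an unadjusted p below 0.05, against 3.22% of all genes. The difference was above 0 for 11 of 12 core (median 0.11), 1 of 3 immune (median -0.004) and 14 of 18 regulatory subunits (median 0.06), beside 53.0% of all genes (median 0.004). In 5 subunits the sign was positive in all 4 pairs, against 5.35% of all genes, and in none was it negative in all 4, against 4.72%. Those 5 were Psma5, Psma7, the ATPase Psmc3 and the lid subunits Psmd12 and Psmd14. Without both corner arrays the medians were 0.03 for core (8 of 12 higher), 0.15 for immune (3 of 3) and 0.04 for regulatory subunits (11 of 18), so the sign of the immune median turned. Pancreas markers were high on 3 arrays of the 5% diet and none of the 21% diet. Those 3 are the only 5% arrays left without the corner arrays, so these medians cannot tell diet and pancreas transcripts apart. The fit to all arrays was repeated with the pancreas level as a covariate, which gave medians of 0.05 for core and 0.01 for regulatory subunits. Because the level went largely with diet, diet and pancreas transcripts cannot be told apart in that fit.

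Psma5, with the values given above, was 0.21 ± 0.08 higher on 21% corn oil, in 4 of 4 pairs (adjusted p = 0.99996 by limma). The lid subunit Psmd13 read 11.35 and 11.16 (F1 and F3) at day 90 and 10.98 and 11.02 at day 456 on 5% corn oil, and 11.28 on both arrays at day 90 and 11.34 and 11.46 at day 456 on 21%. It was higher by 0.21 ± 0.11, in 3 of 4 pairs, and its 2 lowest values were on the day 456 arrays of the 5% diet. Without F3 21% D456 the difference was 0.14. The ATPase Psmc2 read 11.97 and 11.98 at day 90 and 11.82 and 11.95 at day 456 on 5% corn oil, and 11.90 and 12.10 at day 90 and 12.05 and 12.27 at day 456 on 21%. It was higher by 0.15 ± 0.09, and by 0.10 without F3 21% D456. Psma2 read 12.53 and 12.46 at day 90 and 12.52 and 12.49 at day 456 on 5% corn oil, and 12.40 and 12.69 at day 90 and 12.71 and 12.77 at day 456 on 21%, a difference of 0.15 ± 0.09, and of 0.23 without F1 21% D90. For all 3, the sign turned when the pancreas level was a covariate, to -0.10, -0.08 and -0.06. Since that level went largely with diet, the signs in this fit do not tell diet and pancreas transcripts apart.

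The last comparison was of generation, F3 against F1. No gene passed by limma (0%, smallest adjusted p of a subunit 0.988), and 1 subunit, Psma5, had an unadjusted p below 0.05, against 2.14% of all genes. The difference was above 0 for 10 of 12 core (median 0.09), 1 of 3 immune (median -0.09) and 10 of 18 regulatory subunits (median 0.03), beside 43.6% of all genes (median -0.01). Without both corner arrays these medians were 0.07, 0.07 and 0.01, so the sign of the immune median turned. In 5 subunits the sign was positive in all 4 pairs, against 4.59% of all genes, and in none negative, against 5.52%. They were Psma5, Psmb6, Psmb8, Psmc2 and Psmd12. All 21 pancreas acinar markers tested were also higher in F3 (median 0.63, 1 at an unadjusted p below 0.05 by limma). A fit for generation with the pancreas level as a covariate was also run, and no subunit passed in it. Its class medians are not given here. Beyond that fit, the part of pancreas transcripts in the generation differences was not tested.

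Psma5 was higher in F3 by 0.20 ± 0.08, in 4 of 4 pairs. Psmb7 was higher by 0.45 ± 0.24, and by 0.13 ± 0.10 without F1 5% D90. Psmb1 read 11.55 (F1) and 11.62 (F3) at day 90 and 11.36 and 11.54 at day 456 on 5% corn oil, and 11.65 and 11.61 at day 90 and 11.32 and 11.89 at day 456 on 21%. Its difference of 0.19 ± 0.11 came mainly from the day 456 arrays of the 21% diet, and was 0.09 without F3 21% D456 and 0.11 without F1 21% D456. The lid subunit Psmd11 read 8.35 and 8.79 at day 90 and 8.57 and 8.44 at day 456 on 5% corn oil, and 8.45 and 8.61 at day 90 and 8.53 and 8.81 at day 456 on 21%, a difference of 0.19 ± 0.11. It was 0.10 without F3 5% D90, 0.29 without F3 5% D456 and 0.01 ± 0.14 without both corner arrays. On the next probe of Psmd11 above the filter the difference was 0.009. Neither Psmb1 nor Psmd11 passed (adjusted p = 0.988 by limma for both).

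Genes that work with the proteasome were read from 8 lists, and none of their genes passed for any factor by limma. At an unadjusted p below 0.05 stood Gbp2 for age, Pomp for diet, and Psme2, Ubd and Cxcl10 for generation. Of the activators that can cap the core in place of the regulatory particle, Psme2, a subunit of the interferon-induced PA28, was the most variable. It read 8.36 and 8.94 (F1 and F3) at day 90 and 9.17 on both arrays at day 456 on 5% corn oil, and 8.93 and 9.14 at day 90 and 8.81 and 9.39 at day 456 on 21%. Like Psmb7 and Psma5 it was lowest on F1 5% D90, and like Psma5 it was highest on F3 21% D456. Pomp and Gbp2 were also lowest on the first and highest on the second. Both corner arrays add to the differences of these genes, and no fit without them is given here. Psme2 was higher at day 456 by 0.29 ± 0.14. It was higher in F3 by 0.34 ± 0.14, in 4 of 4 pairs (adjusted p = 0.988 by limma), with the day 456 pair on 5% corn oil nearly level. Its partner Psme1 stayed between 11.78 and 11.99. Of the 5 assembly factors tested, 3 were higher at day 456, and Pomp, the chaperone that matures the core, was higher on 21% corn oil in 4 of 4 pairs, by 0.20 ± 0.08. Ecpas, an adaptor that binds the 26S proteasome, was lower at day 456 by 0.28 ± 0.14 and highest on F1 5% D90 (9.65).

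Of 7 transcription factors tested, 6 were lower at day 456 and 5 lower in F3, beside 5309 and 5041 of all 8945 genes. Stat3, Irf1, Nlrc5 and Mafg were, like Nfe2l1, highest on F1 5% D90, which held the highest value of 37.8% of all genes. Nfe2l1 ran from 9.98 to 10.75, highest on F1 5% D90, and was lower at day 456 by 0.14 ± 0.16. Nfe2l2 ran from 7.76 to 8.28, lowest on F1 5% D90, and was higher at day 456 by 0.09 ± 0.12. Bach1, a repressor at the antioxidant response element, was lower at day 456 by 0.26 ± 0.15 and in F3 by 0.29 ± 0.15. For MHC class I antigen processing, 7 of 13 genes were higher at day 456 (median 0.01), with Tap1, the head-to-head neighbour of Psmb9, at -0.07 ± 0.06 and Tap2 at -0.005 ± 0.11. Of 14 interferon gamma induced genes, 9 were higher at day 456 (median 0.02) and 9 in F3 (median 0.09). Gbp2, a guanylate-binding GTPase, was 0.44 ± 0.14 higher at day 456 in 4 of 4 pairs (adjusted p = 0.293 by limma), and Ubd, a ubiquitin-like tag for the proteasome, was 0.45 ± 0.13 higher in F3 in 4 of 4 pairs (adjusted p = 0.988), as was the chemokine Cxcl10, by 0.20 ± 0.08. Of the remaining lists, the ubiquitin genes and E1 enzymes had 1 of 2 tested genes higher at day 456, the shuttle and segregase proteins 3 of 8, and the lid and base proteins without a Psm number 2 of 4, with medians of -0.02, -0.03 and -0.0003. The list of activators had 2 of 4 higher.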

How the data were processed

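The authors deposited 1 table of intensity values on a linear scale, 1 column for each of 8 arrays and 25697 probes. The sources used here do not give the method of normalization, and the equal means and medians show that it was done between arrays. The lowest intensity on each array was 101 to 104, so the values were read as not background-subtracted. Trizol was used to extract the RNA and an Agilent Bioanalyser to check it, per the labels' protocols. The log2 of each deposited value was taken with no further scaling. Gene symbols came from the platform annotation: 23978 probes had 1 symbol and 1719 had no single symbol. Each gene was read on its brightest probe, and 8945 genes were tested, those whose mean exceeded the median over probes (log2 of 6.95). Of the 36 subunits, 36 matched a RefSeq gene by Entrez ID with the same symbol.

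Differences were fitted with limma 3.58.1 in R 4.3.3 (statmod 1.5.0), with diet, age and generation as additive terms (4 residual degrees of freedom), empirical Bayes variances that follow a trend on intensity and Benjamini-Hochberg adjustment over all genes tested per factor. Each interaction was added in turn (3 residual degrees of freedom). All tests were two-sided at an adjusted p of 0.05. With no repeated combination, real interactions add to the error. The arrays' number limits the precision: the SE of a subunit's difference had a median of 0.09. Scripts were tested on simulated data.

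Every subunit may be named. Values on every array are given for the catalytic subunits and for the 4 members with the smallest p per factor, and for each interaction the 2 members with the smallest p are named. Of the other lists, all genes that passed and up to 4 with the largest difference may be named. Psmd14, Psmd7, Psmd8, Ptprc and further genes given for a role were picked once values were known. The members and all lists were chosen with earlier results of these data known. Alternatives were other scalings, background subtraction, a floor, other filters, probe rules, variance models, thresholds and designs, and leaving out arrays. Figures were drawn with matplotlib 3.10.9. Protein sequences were not used here.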

Additional observations from a re-analysis of the deposited data

Results flagged for a closer look

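Among groups of 4 arrays that share a level of a factor, the most extreme array was compared with the rest (Dixon's criterion), for the catalytic subunits, the other subunits named for a factor and the class medians. Of 102 groups examined, 9 had an array beyond the critical value, which is set at about 1 in 20 for independent groups. These groups share arrays, some subunits were named for a small p, and the same value can count more than once. The 9 therefore cannot be judged against that rate.

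Of these, 3 concerned Psmb7. On F1 5% D90 it read 9.30, below the other day 90 arrays (10.47 to 10.68) and below the other arrays of the 5% diet (10.68 to 10.93). On F1 21% D456 it read 10.53, below the other day 456 arrays (10.90 to 10.93). The immune subunits gave 3 more. Their median deviation on F3 21% D456 was -0.13 where the other day 456 arrays had 0.10 to 0.15. Psmb9 read 9.88 on that array, against 10.16 to 10.20 on the other day 456 arrays. Psmb10 read 10.53 on F3 5% D90, against 10.76 to 10.80 on the other arrays of the 5% diet. The remaining 3 were Psmb5 at 9.56 on F3 21% D90, below 9.71 to 9.73 on the other arrays of the 21% diet, Psmb4 at 13.10 on F3 21% D456, above 12.79 to 12.83 there, and Psmc2 at 11.82 on F1 5% D456, below 11.95 to 11.98 on the other arrays of the 5% diet.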

How the results depend on the processing

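No subunit passed for age, diet or generation under any alternative run, or when any array was left out. The number of genes passing for age, 9 as reported, was 15 with background subtracted, 1 with dim values raised to a floor, 25 with no filter, 2 with a stricter filter, 0 with no intensity trend, 24 with robust variances, 234 with array weights, 24 with age alone, 35 with the pancreas level as a covariate, 52 at an adjusted p of 0.1, 0 in the 4 arrays of the 21% diet, 0 without both corner arrays, and 0 to 23 with each array left out. For diet it was 43 with array weights, 5 without both corner arrays (chosen after seeing the data) and 0 to 30 with each array left out, 30 without F1 5% D90. Without F1 5% D90, every remaining 5% array had high pancreas markers, so diet and pancreas transcripts cannot be told apart in those fits. The median core difference for diet was 0.0459 with the pancreas covariate and 0.0347 without both corner arrays, and that for generation was 0.163 in the 4 arrays of the 21% diet. Leaving out arrays gave 0 to 1 subunits passing for diet by age. Psmb10 turned sign for age with the pancreas covariate (-0.00538) and in the 4 arrays of the 21% diet (-0.0723), and ran from -0.0397 to 0.0977 with each array left out. Psmd13 (-0.0984), Psmc2 (-0.0761) and Psma2 (-0.0647) turned sign for diet with the pancreas covariate. The causes were not tested. F1 5% D90 was not kept beside the 21% arrays, since alone on its diet it adds nothing to that fit. No paired analysis by replicate number was possible because every combination has 1 array. With the 4 pairs alike in the other 2 factors as a block (chosen after seeing the data), 8 genes and 0 subunits passed for age and none for diet or generation. Intensities near the array's floor limit Psmd2, Psmd5, Psmd6, Psmd9 and Psmb8, whose differences are understated there.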

Other observations

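Over all 2285 genes with several probes above the filter, the distance between the deviations of the 2 brightest probes was widest on F1 5% D90 for 50.1% of genes, and on each other array for 4.03% to 13.6%. Among the 12 subunits with several such probes it was widest on F1 5% D90 in 8 (Psma7, Psmb2, Psmb7, Psmc5, Psmd7, Psmd9, Psmd10 and Psmd12) and on F3 21% D456 in the other 4 (Psmb10, Psmd2, Psmd6 and Psmd11). With array weights F1 5% D90 received 0.23, the lowest of the 8.

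Of the core subunits, Psmb2 followed the median core profile over the 8 arrays most closely (r = 0.97) and Psmb3 least (r = 0.13). Among the regulatory subunits r ran from -0.66 (Psmd6) to 0.80 (Psmd12). Each core subunit is part of that median, and the points share the normalization and the corner arrays.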
